A study of Mus musculus with 2 samples.

Results

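The S100 calcium-binding protein family was followed through bone marrow cells (BMCs) by its 6 members *S100a4*, *S100a6*, *S100a8*, *S100a9*, *S100a10* and *S100a11*, which were chosen by name. These are 6 of the 9 S100 genes, and of 6001 genes in all, that the counts of both libraries list. BMCs of 1 WT and 1 Cko mouse were compared, with 1 single-cell RNA-Seq (Sc-RNA-Seq) library for each genotype. Both mice were C57BL6/J and 21 days old, and the marrow of hindlimbs and forelimbs was taken after collagenase treatment of the crushed bone and lysis of red blood cells (RBCs). The Cko lacks site-1 protease (S1P) where *Osx-Cre*, an *Osx1-GFP::Cre* transgene under the osterix promoter, removes the floxed exon 2 of *Mbtps1*, the S1P gene, and the WT carries the same floxed alleles (S1P f/f). The Cko alone carries the Cre transgene, so Cre and the loss of S1P cannot be told apart. Osterix is known for its role in the osteoblast lineage. The paper that reported these data also found the deletion in sorted Cko neutrophils, and it proposes that *Osx-Cre* is active in hematopoietic cells. The counts do not show which cells described here carry the deletion.

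S100 proteins are small EF-hand proteins that bind calcium and then bind other proteins. S100A8 and S100A9 pair to form calprotectin, a major protein of the neutrophil cytosol that also binds zinc and manganese and that acts on Toll-like receptor 4 when it leaves the cell. S100A10 is the partner of annexin A2, S100A11 binds annexin A1, S100A4 binds non-muscle myosin, and S100A6 binds the calcyclin-binding protein.

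The WT library held 56382459 UMIs, that is, unique molecular identifiers, each standing for 1 captured RNA molecule, in 6271 cells and the Cko library 34447224 UMIs in 3662 cells. The median depth was 6977 UMIs per WT cell and 7440 UMIs per Cko cell. The libraries shared 28 of 9957 cell barcodes. *Mbtps1* stood at 31.9 CPM, the UMIs of a gene scaled to a common total of UMIs in the WT and at 31.2 CPM in the Cko, but UMIs from the 3′ end lie outside the floxed exon and check nothing. *Sp7*, the osterix gene, was listed in the WT counts alone. Cells were clustered jointly, with the S100 genes left out, and the clusters were named after marker genes, with "-like" because the names rest on these markers alone. The classes used most are neutrophil-like (632 WT and 1118 Cko cells), monocyte-like (280 and 274), B cell-like (849 and 616) and erythroid-like cells (3597 and 576). Since each genotype is 1 library, no difference has a replicate check, none was tested, and each compares these libraries only. Intervals in parentheses are 95% intervals of counting error and leave out the spread between cells and between mice.

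All 6 members lie on chromosome 3 of GRCm38, with 13 of the 16 annotated mouse S100 genes, and each has 3 exons. In the GENCODE annotation *S100a4* lies at chr3:90603771-90606045, *S100a6* at chr3:90612882-90624181 and *S100a8* at chr3:90668978-90670035, all on the plus strand. *S100a9* lies at chr3:90692632-90695721 on the minus strand, and its start is 26743 bases from that of *S100a8*. *S100a11* at chr3:93520488-93526287 and *S100a10* at chr3:93555080-93564643 are on the plus strand 2824766 bases further on. UMIs were read from the 3′ end of transcripts and count molecules, so levels were not divided by transcript length.

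Stretches of the start regions are shown for the members that held a match of a motif marked here in capitals. RefSeq sequence of GRCm38.p6 gives the 250 bases before the start for 5 of the 6 members. The capitals mark TATAAA, the letters of a TATA box, in *S100a8* (chr3:90669029-90669058, plus strand) and *S100a4* (chr3:90603727-90603756, plus strand), TTGCNNAA, a core of sites bound by C/EBP factors, in *S100a9* (chr3:90695939-90695968, minus strand), and TGANTCA, the letters of an AP-1 site, in *S100a11* (chr3:93520447-93520475, plus strand).
S100a8: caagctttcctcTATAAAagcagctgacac
S100a9: ggtaggctgtcTTGCTTAAgatttgggcgg
S100a4: ggcctggcagggTATAAAtaggtcagattg
S100a11: cgggcacagccTGAGTCAggctgaggggc

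TATAAA began 30 bases before the RefSeq start of *S100a8* and 31 bases before that of *S100a4*. The match in *S100a9* began 236 bases before the start, and *S100a11* had 2 matches of TGANTCA. The core of PU.1 sites, spelled GAGGAA, matched in *S100a8* (2 matches) and *S100a11* (1 match). *S100a6* had no match of any of these motifs, so no stretch of it is shown. Both strands were searched and no match of one motif overlapped that of another. Over 32851 RefSeq windows of the same length, 12.4% held TATAAA, 9.56% TTGCNNAA, 6.75% TGANTCA and 23.25% GAGGAA. The letters are a description of the windows and not evidence of a bound site. The GENCODE start of *S100a8* lies 93 bases upstream of the RefSeq start used here.

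*S100a8* and *S100a9* were the 2 genes with the most UMIs in the neutrophil-like cells of both libraries. In the WT, *S100a8* stood at 199256 CPM and *S100a9* at 112858 CPM over these cells, and in the Cko at 200775 and 120241 CPM. Together they made up 31.2% of all UMIs of WT and 32.1% of all UMIs of Cko neutrophil-like cells. No other gene of the 7181 listed in the WT or the 6735 listed in the Cko had more UMIs in these cells.

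The level differed between the neutrophil-like clusters. In the cluster led by *Chil3*, *Ngp* and *Camp*, genes of the secondary granules of immature neutrophils, the median cell held 30.9% of its UMIs in *S100a8* and *S100a9* in the WT and 30.4% in the Cko. In the cluster led by *Mmp8*, *Retnlg* and *Ly6g*, genes of later neutrophils, the medians were 37.4% and 36.9%. The 10th to 90th percentile of the cells ran from 23.6% to 37.4% in the former and from 31.8% to 43.5% in the latter in the WT, so that the clusters overlapped cell by cell. In both clusters every cell of both libraries held at least 1%.

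**Figure D1:**
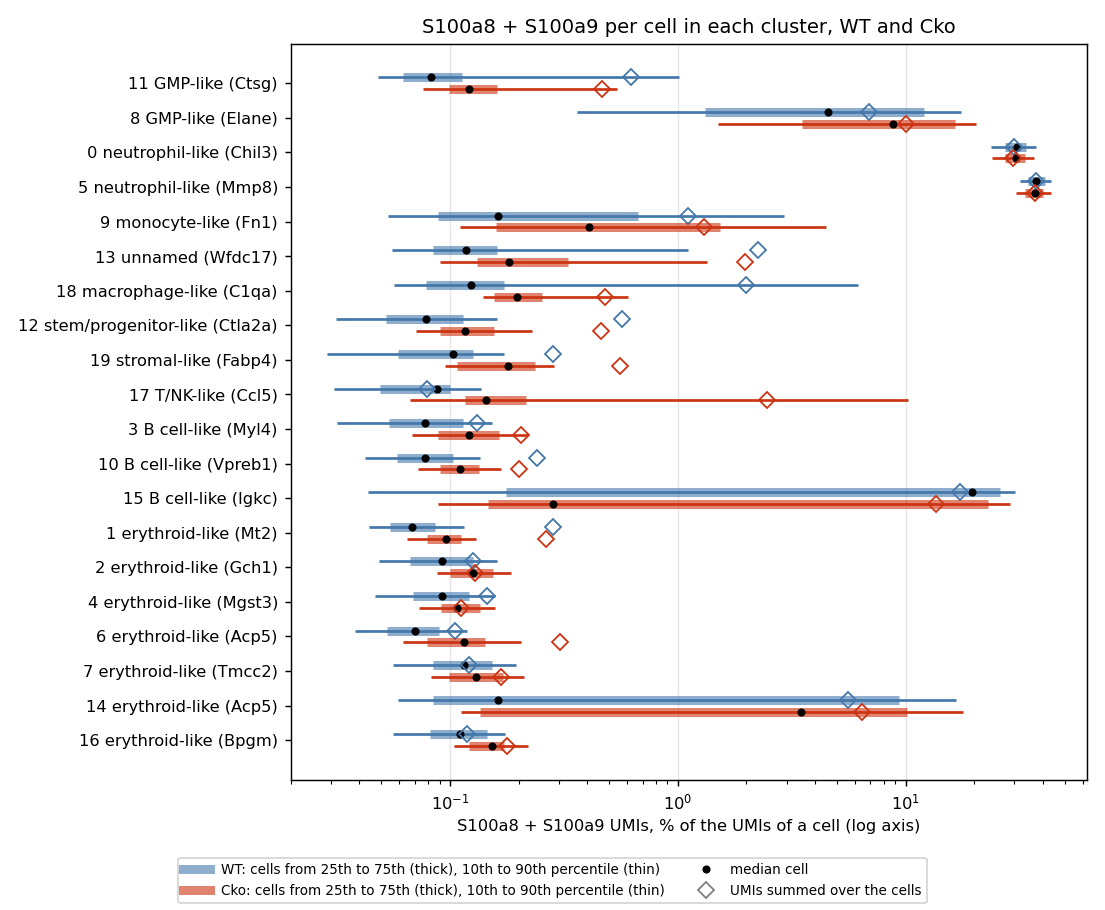
UMIs of *S100a8* and *S100a9* together as a percentage of the UMIs of a cell (log axis) in each of the 20 joint clusters (leading gene in parentheses), for WT and Cko cells. Dots are the median cell, thick and thin bars the cells from the 25th to the 75th and from the 10th to the 90th percentile, and diamonds the UMIs summed over all cells of the cluster. The neutrophil-like clusters have medians of 30.4% to 37.4%, the *Elane*-led progenitors span the range, and the median cell of the B cell-like, erythroid-like and T/NK-like clusters lies between 0.0683% and 0.153% apart from the *Igkc*-led and the *Retnlg*-bearing erythroid-like cluster.

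Among the progenitors the 2 genes appeared between the clusters. In granulocyte-monocyte progenitor-like cells led by *Ctsg* and *Mpo*, the median cell held 0.0821% in the WT and 0.121% in the Cko. In those led by *Elane*, a protease of the primary granules, the median was 4.56% for WT and 8.77% for Cko cells, and the 10th to 90th percentile ran from 0.361% to 17.5% in the WT. The *Elane*-led cells thus spanned the distance from the level of lymphoid cells to more than that of some neutrophil-like cells.

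The *Elane*-led cells of both libraries were divided into tertiles by the CPM of a list of immature neutrophil genes (*Fcnb*, *Chil3*, *Camp*, *Ngp*, *Cebpe* and *Ltf*). The median of *S100a8* and *S100a9* rose from 1.03% to 7.15% and 16.2% over the tertiles in the WT and from 1.64% to 4.85% and 17.1% in the Cko. Of the WT cells 145, 111 and 87 fell into the lowest, middle and highest tertile, and of the Cko cells 53, 87 and 111. The Cko cells were therefore further along in these granule genes, and within the tertiles the Cko median was the higher in the lowest and highest and the lower in the middle one. Over the whole cluster the Cko/WT ratio was 1.42 (1.41 to 1.43) for *S100a8* and 1.56 (1.55 to 1.57) for *S100a9*, and the part of the shift along the tertiles in these ratios was not tested.

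In lymphoid, erythroid-like and stem and progenitor-like cells both transcripts were found at a low level that was alike between the class medians. *S100a8* and *S100a9* together made up 0.0811% of the UMIs of the median B cell-like cell, 0.0852% of the median erythroid-like cell, 0.0878% of the median T/NK-like cell and 0.0783% of the median stem and progenitor-like cell in the WT. In the Cko the same medians were 0.121%, 0.117%, 0.144% and 0.116%. The medians were higher in macrophage-like cells (0.123% in 51 WT and 0.197% in 9 Cko cells) and in stromal-like cells (0.103% and 0.180%). They were also higher in the unnamed cluster (0.118% and 0.182%). B cells and erythroid cells are not known to use either gene, and their level is not read as expression. It is called the background level here, and its source was not tested.

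The background level was near the median of 10 other listed neutrophil genes, and the whole list also set which cells were left out. After cells with at least 1% of their UMIs from the listed neutrophil genes were set aside, which kept 796 of 849 WT and 575 of 616 Cko B cell-like cells and 3485 of 3597 and 555 of 576 erythroid-like cells, the level of *S100a8* in B cell-like cells was 0.415% of its level in neutrophil-like cells of the WT, with 0.390% for the Cko, and that of *S100a9* was 0.447% and 0.457%. In erythroid-like cells *S100a8* was at 0.349% and 0.416% and *S100a9* at 0.374% and 0.462%. For 10 other neutrophil genes the same percentage had a median of 0.352% and 0.447% in B cell-like cells and of 0.337% and 0.508% in erythroid-like cells. The lowest of the 10 in the WT was *Ngp* at 0.200% in B cell-like cells and the highest *Retnlg* at 12.5%. *Elane*, also listed, was not among the 10 and stood at 7.53% in WT and 17.3% in Cko B cell-like cells. In erythroid-like cells *Elane* stood at 13.7% in the WT and 17.5% in the Cko.

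The background level was higher in the Cko library, where neutrophil-like cells were more numerous. *S100a8* and *S100a9* made up 3.34% of all UMIs of the WT library and 8.67% of the Cko library. Set against this total, the median erythroid-like cell held 2.55% of the level of its library in the WT and 1.35% in the Cko. Between libraries the background level thus differed less than the library total did.

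Sums over a class hide a minority of cells with much more. Summed over all cells, *S100a8* and *S100a9* stood at 4.70% of the neutrophil-like level in B cell-like cells of the WT and at 3.84% in the Cko, and at 1.58% and 1.79% in erythroid-like cells. The medians over cells were 0.251% and 0.360% for B cell-like cells and 0.263% and 0.348% for erythroid-like cells. In the WT, 61 of 849 B cell-like cells (7.18%) held at least 1% of their UMIs in the 2 genes and carried 94.8% of the class's UMIs of them. In the Cko, 44 of 616 cells (7.14%) carried 91.0%.

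Most of these cells lay in a pair of clusters. In the *Igkc*-led B cell-like cluster, 47 of 72 WT and 36 of 73 Cko cells held at least 1%, and the median was 19.5% in the WT and 0.282% in the Cko. The WT cells over 1% had 415 CPM of *Ly6g*, a neutrophil surface marker, and 481 CPM of *Cd79a*, a subunit of the B cell receptor complex. The WT cells under 1% had *Ly6g* at 0 UMIs and 2329 CPM of *Cd79a*. In the erythroid-like cluster with *Retnlg* among its leading genes, 95 of 203 WT and 16 of 29 Cko cells held at least 1%, and Scrublet called 29 of the former and 9 of the latter as doublets. In the *Igkc*-led cluster Scrublet called 3 of the 47 and 4 of the 36 cells. Both clusters thus held cells with neutrophil RNA, and the part of doublets that Scrublet does not call was not tested.

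In T/NK-like cells a large difference rested on few cells. None of the 20 WT cells but 8 of the 63 Cko cells held at least 5% of their UMIs in the 2 genes, and these 8 carried 95.1% of the class's UMIs of them. The Cko/WT ratio of the sums was 33.6 (26.1 to 44.0) for *S100a8*, against 2.03 for the ratio of the median cells. *Ly6g* stood at 603 CPM in these 8 cells and at 3.70 CPM in the other 55 Cko cells.

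The balance of the 2 subunits was nearly fixed in neutrophils. *S100a8* made up 63.8% (63.8 to 63.9) of the *S100a8* and *S100a9* UMIs in WT and 62.5% (62.5 to 62.6) in Cko neutrophil-like cells. Cell by cell the share had a median of 63.7% in the WT, with 60.2% and 68.8% at the 10th and 90th percentile. In B cell-like cells with under 1% of their UMIs in the 2 genes the share was 62.8% (61.4 to 64.3) in the WT and 58.7% (57.4 to 60.0) in the Cko, and in erythroid-like cells 62.9% (62.4 to 63.5) and 58.5% (57.4 to 59.7). The share in these cells was close to that of neutrophil-like cells in the WT and lower than it in the Cko.

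In monocyte-like cells the balance lay further towards *S100a8* than in neutrophil-like cells. *S100a8* made up 76.3% (75.7 to 76.9) in WT and 74.6% (74.1 to 75.1) in Cko monocyte-like cells, and 83.8% (82.5 to 85.0) and 79.8% (78.7 to 81.0) in those with under 1% of their UMIs in the 2 genes. Summed over the class, *S100a8* stood at 8427 CPM in the WT and 9725 CPM in the Cko and *S100a9* at 2620 and 3313 CPM. These sums rested on a part of the cells. In the WT 58 of 280 cells (20.7%) and in the Cko 96 of 274 cells (35.0%) held at least 1%. They carried 84.2% and 84.5% of the class's UMIs of the 2 genes. *Retnlg* stood at 842 CPM in these WT and 1046 CPM in these Cko cells, against 16.2 and 69.1 CPM in the cells under 1%. *Ly6g* stood at 15.4 and 2.66 CPM, against 2.02 and 4.13 CPM. The part of neutrophil RNA in the sums and ratios of monocyte-like cells was not tested. The share of *S100a8* was likewise high in the *Elane*-led cells of the lowest tertile, at 79.5% in WT and 77.0% in Cko cells. In the highest tertile the share was 65.9% and 64.6%. It was 69.0% and 67.2% in the *Ctsg*-led progenitors and 67.3% and 74.2% in the 28 WT and 18 Cko stromal-like cells. The share was thus above that of neutrophil-like cells both in the *Elane*-led cells with the fewest granule gene UMIs and in monocyte-like cells.

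**Figure D2:**
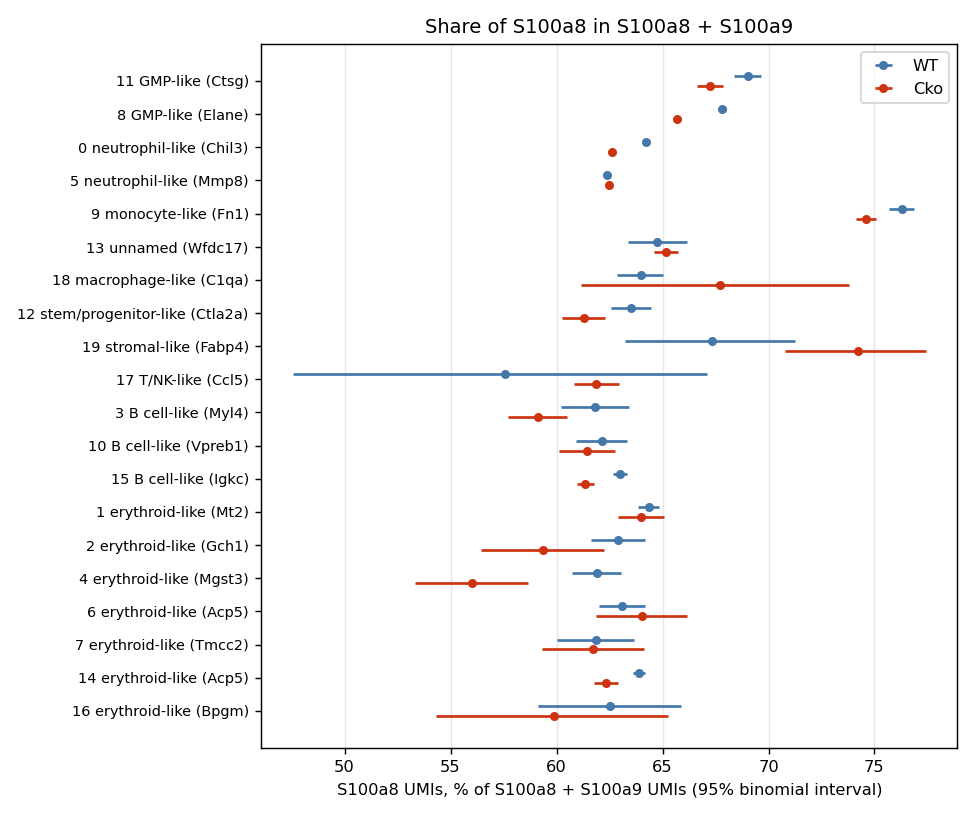
Share of *S100a8* in the UMIs of *S100a8* and *S100a9* together (percent, with 95% binomial intervals) in each joint cluster of the WT and the Cko library. Neutrophil-like, B cell-like and erythroid-like clusters lie between 56.0% and 64.3%, and the monocyte-like cluster at 76.3% in the WT and 74.6% in the Cko.

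Between genotypes the calprotectin genes hardly differed in neutrophil-like cells. The Cko/WT ratio was 1.01 (1.005 to 1.010) for *S100a8* and 1.07 (1.06 to 1.07) for *S100a9*, and within clusters the ratios of *S100a8* were 0.966 in the *Chil3*-led and 0.990 in the *Mmp8*-led cells. Neutrophil-like cells made up 10.1% of the WT and 30.5% of the Cko cells, beside the higher share of the 2 genes in the whole Cko library. When each library was clustered on its own, which draws the class differently, the log2 ratios were 0.38 and 0.45.

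*S100a6* and *S100a11* were higher in the neutrophil-like cells of the Cko. *S100a6* stood at 366 CPM (1506 UMIs) in the WT and 1040 CPM (7950 UMIs) in the Cko, a ratio of 2.84 (2.69 to 3.01). *S100a11* stood at 1865 CPM in the WT and 2886 CPM in the Cko, a ratio of 1.55 (1.51 to 1.59). Of 4 members with at least 100 UMIs in these cells, these 2 were at least 1.5-fold higher and none was 1.5-fold lower, against 4.53% of 4151 genes higher and 4.87% lower. The median log2 ratio was 0.36 over the 4 members and -0.07 over all these genes. *S100a4* (8 WT and 21 Cko UMIs) and *S100a10* (51 and 39 UMIs) had too few UMIs.

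The class held the clusters in different proportion, 461 *Chil3*-led and 171 *Mmp8*-led cells in the WT and 571 and 547 in the Cko, so the ratios were also taken within each cluster. In the *Chil3*-led cells *S100a6* stood at 171 CPM in the WT and 344 CPM in the Cko, a ratio of 2.01 (1.83 to 2.21), and in the *Mmp8*-led cells at 1316 and 2410 CPM, a ratio of 1.83 (1.71 to 1.96). *S100a11* stood at 1528 and 1824 CPM in the former, a ratio of 1.19 (1.15 to 1.23), and at 3508 and 4977 CPM in the latter, a ratio of 1.42 (1.36 to 1.48). Both genes were higher in the Cko in both clusters. The ratio of *S100a11* was below 1.5-fold in each.

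Both genes were higher in the more mature neutrophil-like cells. Maturation was measured by the UMIs of *Retnlg*, *Mmp8*, *Cxcr2*, *Il1b* and *Ccl6* against those of the same immature neutrophil genes, and the cells of both libraries were divided into 3 bins of like size. From the least to the most mature bin *S100a6* stood at 145, 282 and 1840 CPM in the WT and at 278, 474 and 2490 CPM in the Cko. *S100a11* stood at 1542, 1806 and 3813 CPM in the WT and at 1769, 2085 and 4979 CPM in the Cko. *S100a8* and *S100a9* together rose far less, from 296498 to 354620 CPM in the WT and from 291853 to 358464 CPM in the Cko.

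Within bins the Cko level stayed above that of the WT for *S100a6*, with ratios of 1.92 (1.69 to 2.20), 1.68 (1.4996 to 1.89) and 1.35 (1.26 to 1.46). For *S100a11* they were 1.15 (1.10 to 1.199), 1.15 (1.10 to 1.21) and 1.31 (1.24 to 1.38). Of the WT neutrophil-like cells 48.6% lay in the least and 15.5% in the most mature bin, against 24.7% and 43.5% of the Cko cells. All these ratios were below that of the class, and with 5 bins the ratios of *S100a6* ran from 1.29 to 2.34. The most mature bin held 98 WT and 486 Cko cells.

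**Figure D3:**
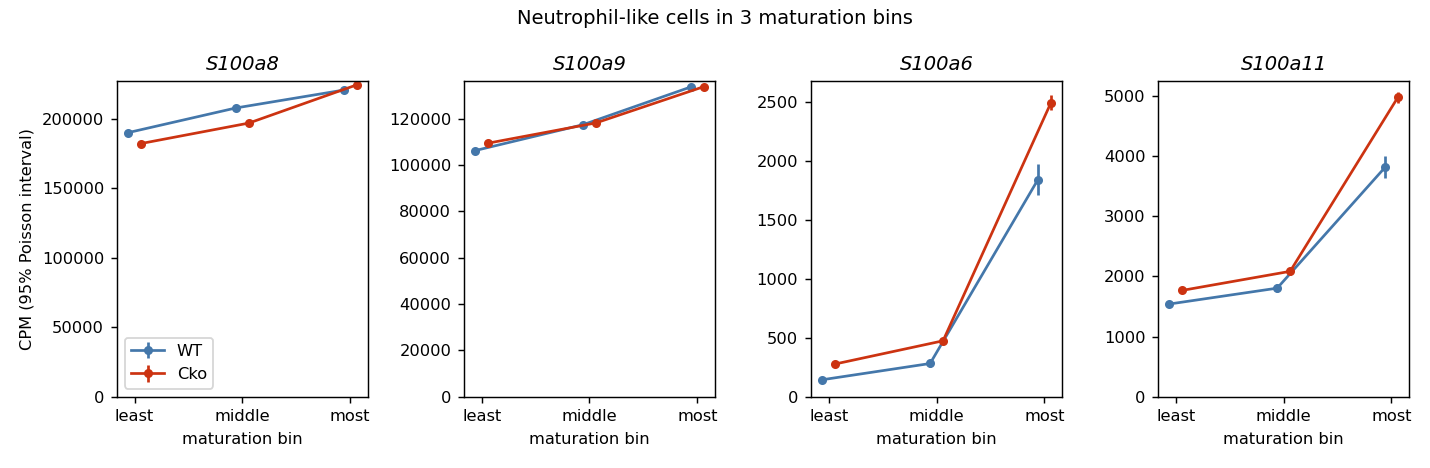
Levels of *S100a8*, *S100a9*, *S100a6* and *S100a11* (CPM, with 95% Poisson intervals) in neutrophil-like cells of the WT and the Cko library in 3 maturation bins. *S100a6* climbs from 145 to 1840 CPM in the WT and from 278 to 2490 CPM in the Cko, whereas *S100a8* and *S100a9* change little.

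The same 2 genes were followed into the progenitors. In the *Elane*-led cells *S100a11* stood at 926 CPM in the WT and 1324 CPM in the Cko, a ratio of 1.43 (1.37 to 1.496), and *S100a6* at 19.1 and 45.9 CPM, with 76 and 147 UMIs. In the *Ctsg*-led cells *S100a11* stood at 524 and 690 CPM, a ratio of 1.32 (1.24 to 1.40), and *S100a6* at 143 and 148 CPM, a ratio of 1.03 (0.917 to 1.17). *S100a6* was thus lower in the *Elane*-led cells than in the *Ctsg*-led and the *Chil3*-led cells of both libraries. After each cell was thinned to 3000 UMIs, 3.79% of WT and 8.76% of Cko *Elane*-led cells had a UMI of *S100a6*, against 62.0% and 79.0% of the *Mmp8*-led cells.

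*S100a4* was above 100 CPM in 3 of 20 WT and 4 of 18 Cko clusters of at least 20 cells. Its highest level was 1020 CPM in the WT and 1305 CPM in the Cko, in a cluster left unnamed that carried monocyte markers together with *H2-Aa*, *Cd74* and *Apoe* (47 WT and 280 Cko cells). Monocyte-like cells followed at 528 CPM in the WT and 816 CPM in the Cko, and T/NK-like cells stood at 247 and 184 CPM on 33 and 60 UMIs, of which 5 cells carried 97.0% in the WT and 91.7% in the Cko. In the Cko the erythroid-like cluster with *Retnlg* lay between them at 696 CPM, nearly all from 5 cells. In neutrophil-like cells, where *S100a8* and *S100a9* peaked, *S100a4* stood at 1.94 CPM in the WT and 2.75 CPM in the Cko. Not 1 UMI of it was found in the 145 cells of the *Igkc*-led cluster, which allows up to 3 UMIs in each library.

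*S100a6* shared its 3 highest clusters between libraries. In the WT it stood at 2612 CPM in the unnamed *H2-Aa* cluster, at 2088 CPM in monocyte-like and at 1316 CPM in *Mmp8*-led cells. In the Cko the order was 3145, 2410 in the *Mmp8*-led and 2313 CPM in the monocyte-like cells, and the intervals of the last 2 overlapped. The lowest levels, 5.81 CPM in the WT and 6.52 CPM in the Cko, were in erythroid-like clusters.

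*S100a10* was highest in lymphoid and monocytic cells. Its highest levels in the WT were 2287 CPM in T/NK-like and 2232 CPM in monocyte-like cells, whose intervals overlapped, then 1690 CPM in the unnamed *H2-Aa* cluster and 545 CPM in the *Myl4*-led B cell-like cells. In neutrophil-like cells it stood at 12.4 CPM in the WT and 5.10 CPM in the Cko, the lowest of the classes in both. *S100a11* was above 100 CPM in 12 of the 20 WT and 12 of the 18 Cko clusters and highest in *Mmp8*-led cells.

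**Figure D4:**
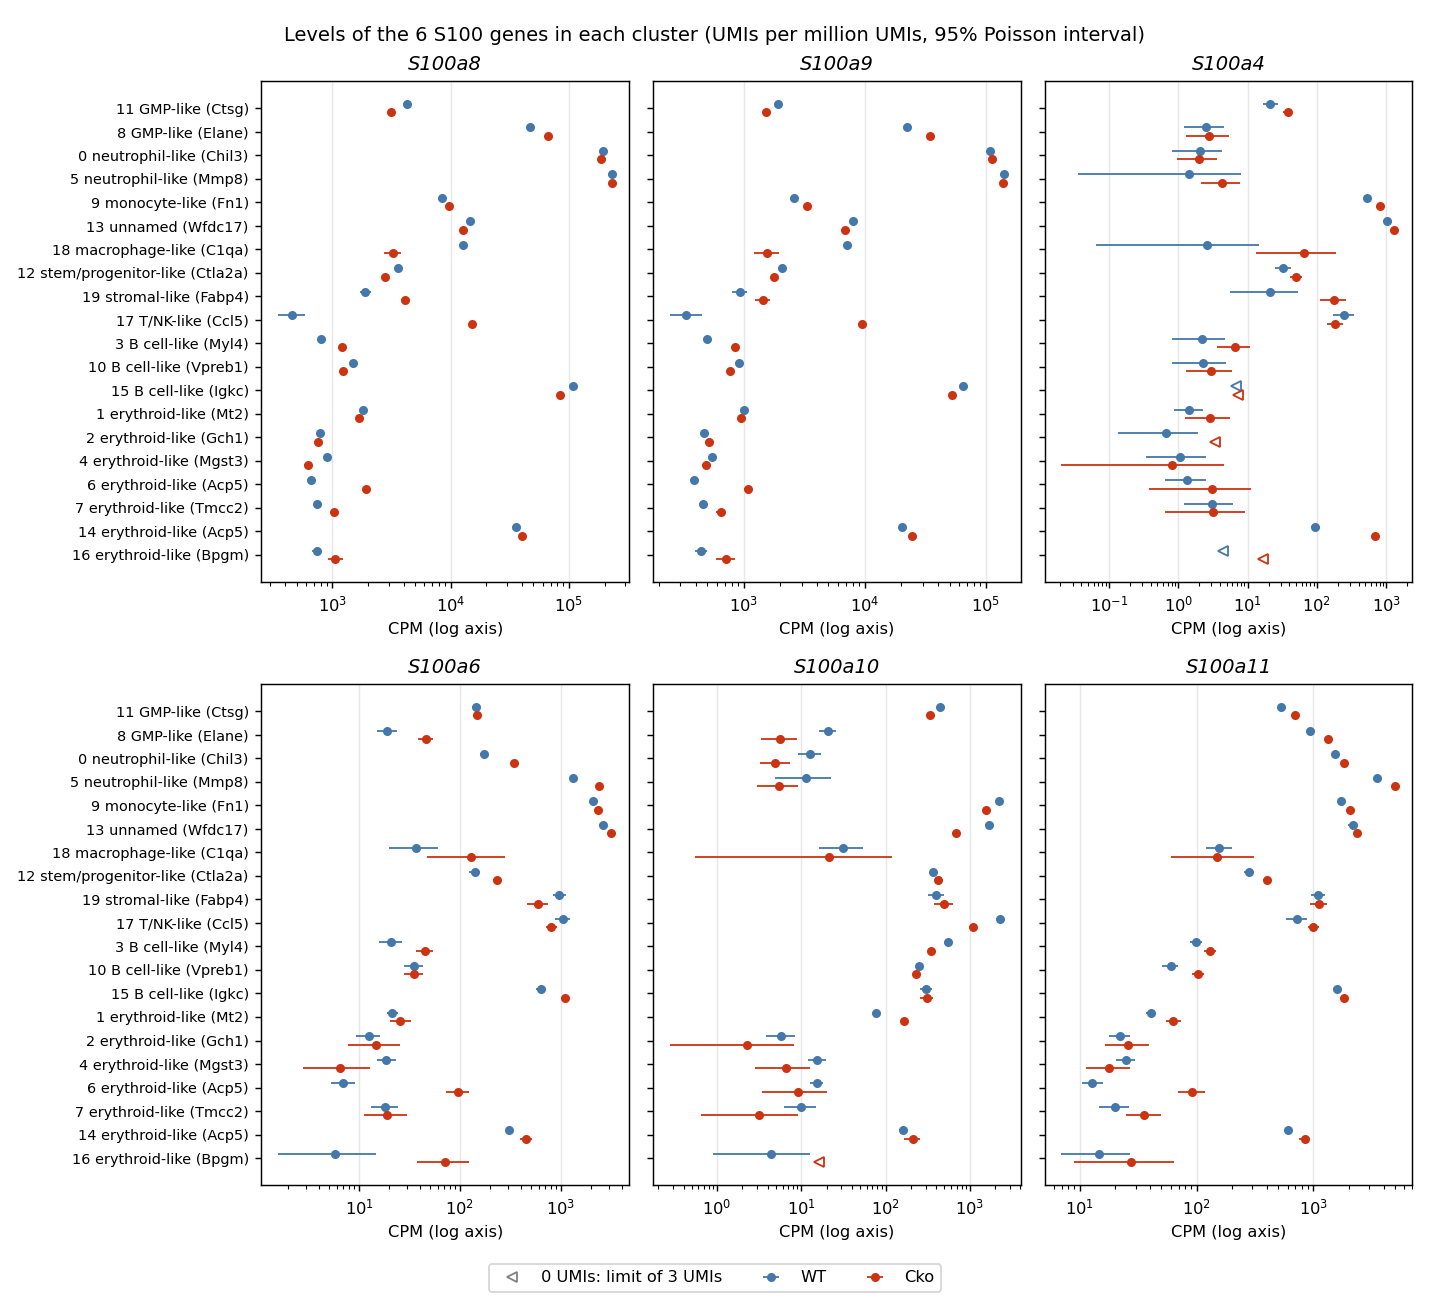
Levels of the 6 members (CPM on log axes, 95% Poisson intervals) in each of the 20 joint clusters of the WT and the Cko library. *S100a8* and *S100a9* peak in neutrophil-like cells, *S100a4* in the unnamed *Wfdc17*-led and the monocyte-like cluster, and *S100a10* in T/NK-like and monocyte-like cells. Open triangles mark a cluster with 0 UMIs at the level of 3 UMIs.

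In monocyte-like cells *S100a4* was higher and *S100a10* lower in the Cko. *S100a4* had a Cko/WT ratio of 1.55 (1.43 to 1.67) on 990 and 1994 UMIs. *S100a10* stood at 2232 CPM in the WT and 1559 CPM in the Cko, a ratio of 0.698 (0.668 to 0.730). All 6 members had at least 100 UMIs, *S100a4* alone was at least 1.5-fold higher and none was 1.5-fold lower, against 3.33% of 3817 genes higher and 5.19% lower. With the mean over cells in place of the sum, the log2 ratio of *S100a4* was 0.54 and no member was past 1.5-fold. *S100a6*, *S100a8*, *S100a9* and *S100a11* had ratios between 1.11 and 1.26. The median monocyte-like cell held 0.162% of its UMIs in *S100a8* and *S100a9* in the WT and 0.407% in the Cko, a wider difference than that of the sums.

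*S100a10* was also lower in the Cko in some of the other clusters. Among 12 clusters with at least 20 cells in each library and 100 UMIs, its interval lay below 1 in 6 and above 1 in 3. It held 1 in the other 3. In the unnamed *H2-Aa* cluster it stood at 1690 CPM in the WT and 691 CPM in the Cko, a ratio of 0.409 (0.361 to 0.464). In T/NK-like cells it stood at 2287 and 1096 CPM, a ratio of 0.479 (0.410 to 0.560), and 5 of the 20 WT cells carried 60.8% of its UMIs. In *Myl4*-led B cell-like cells it stood at 545 and 348 CPM, a ratio of 0.637 (0.584 to 0.695), and in *Vpreb1*-led B cell-like cells, which are earlier in the lineage, at 251 and 229 CPM, a ratio of 0.913 (0.816 to 1.02). In the *Ctsg*-led progenitors it stood at 438 and 333 CPM, a ratio of 0.760 (0.707 to 0.818). In the *Elane*-led progenitors, where its level was low at 20.6 and 5.62 CPM, the ratio was 0.272 (0.154 to 0.457). There 5 of the Cko cells carried 72.2% of its 18 UMIs. Summed over the *Igkc*-led cells *S100a10* was not lower, at 303 and 311 CPM with a ratio of 1.02 (0.798 to 1.32). These sums include cells with neutrophil RNA. Without them *S100a10* stood at 499 CPM in 25 WT cells and 453 CPM in 38 Cko cells. *S100a10* was higher in the Cko in stem and progenitor-like cells, at 370 CPM in the WT and 421 CPM in the Cko, a ratio of 1.14 (1.03 to 1.26). It was also higher in the *Mt2*-led erythroid-like cells, at 76.1 and 167 CPM, a ratio of 2.20 (1.97 to 2.46). In the erythroid-like cluster with *Retnlg* the ratio was 1.30 (1.01 to 1.65), and 5 of the Cko cells carried 89.8% of the UMIs.

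**Figure D5:**
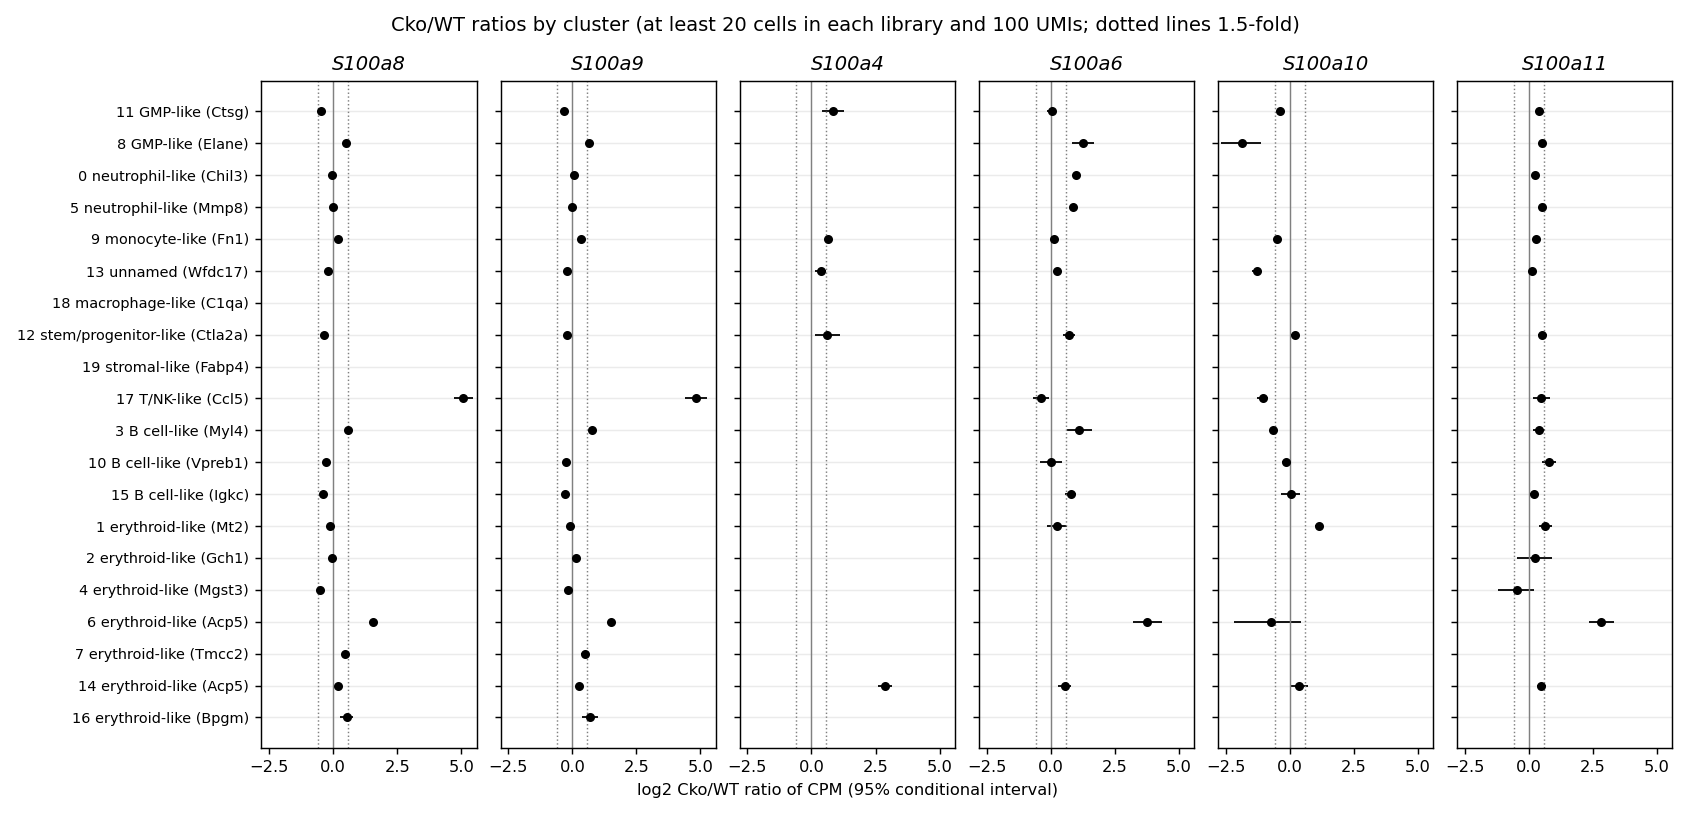
Cko/WT ratios of the 6 members (log2 of the ratio of CPM, with 95% conditional intervals) in the joint clusters with at least 20 cells in each library, for genes with at least 100 UMIs; dotted lines mark 1.5-fold. *S100a6* lies to the right in both neutrophil-like clusters, *S100a10* to the left in the monocyte-like, unnamed and T/NK-like clusters, and *S100a8* and *S100a9* near 0 in neutrophil-like cells. The points of *S100a8* and *S100a9* at T/NK-like cells rest on 8 Cko cells.

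In B cell-like cells 5 members had at least 100 UMIs, *S100a6* was at least 1.5-fold higher in the Cko and none was 1.5-fold lower, against 2.39% of 4947 genes higher and 3.01% lower. *S100a6* stood at 73.6 CPM in the WT and 121 CPM in the Cko, a ratio of 1.65 (1.46 to 1.87). Without the cells bearing at least 1% neutrophil RNA, *S100a6* stood at 24.6 CPM (135 UMIs) in the WT and 41.6 CPM (211 UMIs) in the Cko. Without the *Igkc*-led cluster, which mixed B cell and neutrophil RNA, the log2 ratio of *S100a6* was 0.51 and no member passed 1.5-fold. The log2 ratios of *S100a8* and *S100a9* were -0.29 and -0.19 with that cluster and 0.09 and 0.19 without it, and 0.88 and 1.01 when each library was clustered on its own, so their direction in B cell-like cells depended on how the class was drawn.

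In erythroid-like cells *S100a4*, *S100a6*, *S100a10* and *S100a11* of the 6 members were at least 1.5-fold higher in the Cko and none was 1.5-fold lower, against 6.91% of 5252 genes higher and 6.53% lower. The levels were low. *S100a4* stood at 6.68 CPM in the WT and 43.2 CPM in the Cko, *S100a6* at 32.7 and 52.9 CPM, *S100a10* at 44.8 and 80.9 CPM and *S100a11* at 60.3 and 94.8 CPM. Without the cells bearing at least 1% neutrophil RNA, *S100a6* was at 4.93% of its neutrophil-like level in the WT and 2.98% in the Cko. *S100a11* was at 1.46% and 1.68%. The part of a background level in these values was not tested. Of the 307 UMIs of *S100a4* in the Cko, 130 came from 1 cell and 95.1% from 5 cells, and 293 lay in the cluster with *Retnlg*. In the *Acp5*-led cluster without *Retnlg*, 5 of the 46 Cko cells carried 95.2% of the UMIs of *S100a6* and 91.5% of those of *S100a11*. With each library clustered on its own, all 6 members were past 1.5-fold, with log2 ratios of 1.62 for *S100a8*, 1.68 for *S100a9*, 2.11 for *S100a6* and 2.16 for *S100a11*. With called doublets left out, 2 members were past 1.5-fold in erythroid-like cells, and *S100a10* turned direction (log2 ratio -0.32) when each cell was named from its marker scores.

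Genes known to act with the members were described beside them. Of the annexins, 6 of 8 were listed in both libraries. In neutrophil-like cells *Anxa5* and *Anxa6* of these 6 were at least 1.5-fold higher in the Cko and none was lower, with a median log2 ratio of 0.48 over the 6, against 4.53% of all genes higher and 4.87% lower. Within the *Chil3*-led and *Mmp8*-led clusters the ratio of *Anxa5* was 1.62 (1.31 to 2.01) and 1.30 (0.972 to 1.77), and *Anxa6* had under 100 UMIs in each. *Anxa1*, whose protein binds S100A11, stood at 3800 CPM in the WT and 5184 CPM in the Cko, a ratio of 1.36 (1.34 to 1.39), and *Anxa2*, the partner of S100A10, at 222 and 319 CPM, a ratio of 1.43 (1.33 to 1.55). Within both clusters *Anxa1* had a ratio of 1.27 and *Anxa2* ratios of 1.23 and 1.27. In monocyte-like cells *Anxa2* had a ratio of 0.973 (0.907 to 1.04), against 0.698 for *S100a10*. In the T/NK-like cells, where *S100a10* was lower in the Cko, *Anxa2* stood at 605 and 389 CPM, a ratio of 0.642 (0.482 to 0.859), on 81 and 127 UMIs.

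Of 8 receptors and binding proteins of S100A8 and S100A9, *Bsg*, *Cd14*, *Cd36* and *Cd69* were listed in both libraries, and in neutrophil-like cells *Bsg* alone had at least 100 UMIs. *Bsg*, which encodes basigin, stood at 129 CPM in WT and 92.5 CPM in Cko neutrophil-like cells, a ratio of 0.718 (0.641 to 0.806). None of the 4 partners of S100A4 and S100A6 (*Myh9*, *Cacybp*, *Sugt1* and *Ppp5c*) was past 1.5-fold in neutrophil-like cells, with a median log2 ratio of -0.08, or in monocyte-like cells, where 3 had enough UMIs and the median was -0.01. Of 9 myeloid transcription factors 5 had enough UMIs in neutrophil-like cells, and *Gfi1*, a transcriptional repressor needed for neutrophil development, was 1.5-fold lower in the Cko at 23.6 and 12.8 CPM, a ratio of 0.544 (0.407 to 0.728), against 4.87% of all genes lower. Within the *Chil3*-led cells its ratio was 0.616 (0.454 to 0.836), and the *Mmp8*-led cells held 4 WT and 13 Cko UMIs of it. None of the 5 was 1.5-fold higher over the class. *Cebpe*, a factor of the granule genes, stood at 1095 CPM in both libraries, a ratio of 0.9998 (0.964 to 1.04). *Cebpb*, another C/EBP factor, had a ratio of 1.16 (1.05 to 1.28) in the *Chil3*-led cells. In the *Mmp8*-led cells its ratio was 1.94 (1.38 to 2.81), on 38 WT and 272 Cko UMIs.

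Correlations were taken over clusters, which share the libraries, the depth and the total by which CPM is scaled. Many of these clusters held *S100a8* and *S100a9* at the background level or in cells with neutrophil RNA. The part of such RNA in the correlations was not tested. *S100a8* and *S100a9* had a Pearson correlation of log2(CPM + 1) of 0.996 over 20 WT clusters and over 18 Cko clusters. *S100a6* correlated with *S100a11* at 0.880 in both libraries and *S100a4* with *S100a10* at 0.769 and 0.709. For *S100a8* and *S100a10* the correlations were -0.0339 and 0.0889. Among 5648 genes with enough UMIs, those most like *S100a8* were *1100001G20Rik*, *Chil3* and *Gca*, with correlations of 0.974 to 0.987 in the WT, and those most like *S100a9* were *1100001G20Rik*, *Camp* and *Ngp*. *S100a4* was most like *Ccr2* (0.922 in the WT and 0.931 in the Cko), a chemokine receptor of monocytes, *Ahnak* and *Itgb7*. *S100a6* was most like *Anxa2* (0.922 and 0.929), *Xdh* and *Itgal*, *S100a10* most like *Tmsb10*, *Gm9844* and *Crip1*, and *S100a11* most like *Cnn2*, *Slc31a2* and *Dhrs7*.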

How the data were processed

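Sc-RNA-Seq counts of 1 WT and 1 Cko library were analysed. Per the labels the libraries were made with the Chromium Single Cell 3′ v2 kit, and the submitters' processing notes name Cell Ranger and GRCm38. The authors deposited raw UMI counts, as whole numbers without normalization, for each gene in each cell, and a row and a column of totals were dropped. No gene is listed that stays under 4 UMIs in each cell, and an unlisted gene was not set to 0. Of 6287 WT and 3670 Cko barcodes, the 6271 and 3662 with 200 genes or more were used. Scrublet (scanpy 1.11.5, expected rate of 5%) called 127 WT and 51 Cko cells as doublets, and these were not removed.

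Both libraries were clustered together with Seurat 5.3.0 in R 4.3.3, on 1992 variable genes (2000 less the S100 genes), 20 principal components and 20 neighbours at a resolution of 0.8, with mitochondrial and ribosomal shares regressed out. A marker counted at a share of at least 25% of cells and a fold of at least 1.5, and a cluster needed 3. CPM is the UMIs of a gene over all UMIs of the same cells. Ratios needed 100 UMIs in both libraries together. Maturation added 1 UMI to each sum. Intervals are exact Poisson (CPM), binomial (shares) and conditional (ratios). The intervals of ratios alone were tried on simulated counts, which had Poisson error and no spread between cells. Named genes were the members, the genes of the lists of annexins, receptors, partners, transcription factors and neutrophil genes, the 3 genes most like each member, *Mbtps1* and *Sp7*. Other genes in the text are leading or marker genes of clusters, and *H2-Aa*, *Cd74* and *Apoe* were named after their values were seen. The members and lists were chosen with earlier results of these data known. The alternatives were other resolutions, separate clustering, clustering with S100 genes, removal of doublets, 500 genes per cell, marker scores, other totals, removal of cells with at least 1% hemoglobin RNA (neutrophil RNA in erythroid-like cells), means over cells, a limit of 2-fold and 5 bins. Computations ran in Python 3.11.15 with scipy 1.17.1, matplotlib 3.10.9, pandas 2.3.3 and numpy 2.4.6.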

Additional observations from a re-analysis of the deposited data

How the results depend on the processing

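Of 247 recomputed log2 ratios for the 21 member and class pairs, 124 moved by less than counting error, 122 moved by more, and 1 ratio past 1.5-fold changed sign: *S100a10* in erythroid-like cells was -0.32 with classes from marker scores. Ratios within 1.5-fold changed sign more often. *S100a8* kept its sign under 7 of 12 alternatives in B cell-like cells (-0.34 to 0.88), 8 of 12 in neutrophil-like cells (-0.03 to 0.38) and 11 of 12 in monocyte-like cells, and *S100a9* under 6 of 12 in B cell-like cells (-0.23 to 1.01). Counting error is small at these depths, so it marks small moves. *S100a6* in neutrophil-like cells stayed past 1.5-fold under all 12 alternatives, at 1.32 to 1.52, and *S100a11* under 8 of 12, at 0.57 to 0.91. *S100a4* in erythroid-like cells had enough UMIs under 7 alternatives only.

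The members past the fold limit in neutrophil-like cells numbered 1 at a resolution of 0.4, with S100 genes in the clustering and at 2-fold, and 4 with each library clustered on its own. In monocyte-like cells they numbered 2 at resolutions of 0.4 and 1.2 and with each library clustered on its own, 4 with marker scores, and 0 without cells bearing at least 1% hemoglobin RNA, with the mean over cells and at 2-fold. In B cell-like cells they numbered 2 with each library clustered on its own and 0 with marker scores, at 2-fold and without the *Igkc*-led and *Retnlg*-bearing clusters. In erythroid-like cells they numbered 6 with each library clustered on its own, 2 without called doublets and 1 with marker scores, the mean over cells and at 2-fold. The causes were not tested.

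The level of *S100a8* and *S100a9* as a percentage of that in neutrophil-like cells, for B cell-like WT, B cell-like Cko, erythroid-like WT and erythroid-like Cko cells in this order, was 0.644, 0.707, 0.603 and 0.663 at a resolution of 1.2, and 0.729, 1.05, 0.638 and 1.51 with each library clustered on its own. It was 4.18, 3.45, 0.464 and 0.593 without doublets, 1.66, 1.58, 0.651 and 0.618 with marker scores, and 3.28, 2.62, 1.47 and 1.72 with members and hemoglobin left out of the total. It was 4.87, 3.87, 0.356 and 0.433 without erythroid-like cells bearing at least 1% neutrophil RNA and cells of other classes bearing at least 1% hemoglobin RNA, and 4.53, 4.54, 1.33 and 1.40 with the mean over cells. For the last 3 in this order it was 3.97, 0.599 and 0.664 at a resolution of 0.4, 3.97, 1.62 and 1.85 with S100 genes in the clustering, and 3.97, 1.73 and 1.98 with at least 500 genes per cell. Under alternatives chosen after seeing the data, all 4 were 0.251, 0.360, 0.263 and 0.348 with the median over cells, 0.595, 0.634, 0.597 and 0.641 without the *Igkc*-led and *Retnlg*-bearing clusters, and 0.426, 0.415, 0.358 and 0.433 without B cell-like and erythroid-like cells bearing neutrophil RNA. With 5 maturation bins, the most over the least mature level of both genes in the WT was 1.24.

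No paired analysis was possible because each genotype has 1 library. Genes with under 100 UMIs in a class could not be compared.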
